A study of Mus musculus with 12 samples.

Results

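The 41 genes described here encode proteins that sense and repair damaged DNA. They were listed by name, with earlier results of these data known, and looked up among the 38924 gene identifiers that were counted. All 41 were found in the table, and all 41 passed the filter on low counts that left 13811 genes for testing, with at least 120 reads in every library. They cover 8 roles: 5 damage kinases, 8 break sensors and chromatin mediators, 2 replication checkpoint mediators, 9 homologous recombination genes, 6 genes of the Fanconi anaemia pathway, 4 non-homologous end joining genes, 5 genes of base excision and single-strand break repair, and 2 genes of mismatch and nucleotide excision repair.

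RNA was sequenced from CD4+ T cells taken from the spleens of C57BL/6 mice aged 8 to 12 weeks, either wild-type (WT) or carrying the Goldenticket allele of STING on both chromosomes (STINGgt/gt, labelled as a knockout in the deposited descriptions). By the study's methods the spleen cells were sorted as naive T cells, a gate that should leave out B, NK and myeloid cells. The cells had been expanded for 2 days with antibodies to CD3 and CD28 and rested for 1 day, and were then treated for 16 h with CMA, a cell-permeant agonist of the mouse STING protein, or with its solvent DMSO. There were 3 libraries in each of the 4 groups (WT with DMSO, WT with CMA, STINGgt/gt with DMSO and STINGgt/gt with CMA), which differ in no other labelled factor. The series asks what STING activation does to gene expression in T cells, and the STINGgt/gt cells serve as the control for effects of CMA that do not need STING.

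A double-strand break is bound by the Mre11a, Rad50 and Nbn complex, which activates the kinase Atm, while single-stranded DNA at stalled forks activates Atr, and the end joining complex contains the kinase Prkdc. Atm phosphorylates the histone variant H2afx around the break, and this mark recruits Mdc1, the ubiquitin ligases Rnf8 and Rnf168, and Trp53bp1. Breaks are then sealed either by end joining, which lymphocytes also use in antigen receptor rearrangement and class switching, or by homologous recombination, which copies a sister chromatid and is most active in dividing cells.

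The libraries held 27414450 to 43784910 reads assigned to genes, and the 41 genes took 0.285 to 0.378% of them. The Goldenticket allele is a point mutation that leaves the transcript in place, so the level of the STING gene, Tmem173, does not check the genotype labels. Tmem173 was at 183 to 190.3 CPM (read counts scaled to a common library size and adjusted for library composition) in WT with DMSO and at 168 to 181 CPM in STINGgt/gt with DMSO. The T cell genes Cd3e, Cd4 and Cd28 were abundant in every group, with means of 160.3 to 279 CPM, 435 to 540.3 CPM and 677 to 786 CPM. The WT DMSO libraries differed most among themselves: replicate 2 stood apart by a median log2 deviation of -0.13 for genes with 8 kb or more of exon and 0.093 for genes with under 2 kb. Of the 41 genes, 12 have 8 kb or more of exon and 1, H2afx, has under 2 kb.

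The promoters of the genes at both ends of the CMA response are given first, from 250 bases before to 50 bases after the transcription start in RefSeq (GRCm38.p6), each on its coding strand. Atm and Brca1 showed the largest increases in WT and Xrcc6 and Fancb the largest decreases. Capitals mark E2F motifs (TTTCCCGC, TTTGGCGC, TTTGCCGC or TTTCGCGC) and CCAAT boxes (CCAAT), searched on both strands, so that a reverse match reads GCGGGAAA or ATTGG, for example. The Atm promoter lies at chr9:53536622-53536921 on the minus strand, that of Brca1 at chr11:101551906-101552205 on the minus strand, that of Xrcc6 at chr15:82016119-82016418 on the plus strand and that of Fancb at chrX:164980342-164980641 on the plus strand.
Atm: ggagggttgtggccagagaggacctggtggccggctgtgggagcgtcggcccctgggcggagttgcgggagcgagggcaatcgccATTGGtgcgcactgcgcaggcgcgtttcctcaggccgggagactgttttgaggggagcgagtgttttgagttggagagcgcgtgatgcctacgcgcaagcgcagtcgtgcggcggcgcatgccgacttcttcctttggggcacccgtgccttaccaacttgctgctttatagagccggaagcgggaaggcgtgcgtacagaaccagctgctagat
Brca1: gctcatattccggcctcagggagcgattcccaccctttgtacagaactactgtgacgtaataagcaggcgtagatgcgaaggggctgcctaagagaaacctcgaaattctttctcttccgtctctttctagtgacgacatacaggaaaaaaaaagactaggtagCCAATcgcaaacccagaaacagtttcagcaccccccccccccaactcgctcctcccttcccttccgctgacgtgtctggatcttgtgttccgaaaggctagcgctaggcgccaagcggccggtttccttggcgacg
Xrcc6: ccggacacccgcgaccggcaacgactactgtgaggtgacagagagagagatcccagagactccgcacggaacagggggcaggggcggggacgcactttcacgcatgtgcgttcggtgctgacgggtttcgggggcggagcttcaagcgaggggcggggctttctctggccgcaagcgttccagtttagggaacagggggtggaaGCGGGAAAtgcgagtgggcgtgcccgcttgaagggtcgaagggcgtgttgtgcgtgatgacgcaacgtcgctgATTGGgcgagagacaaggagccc
Fancb: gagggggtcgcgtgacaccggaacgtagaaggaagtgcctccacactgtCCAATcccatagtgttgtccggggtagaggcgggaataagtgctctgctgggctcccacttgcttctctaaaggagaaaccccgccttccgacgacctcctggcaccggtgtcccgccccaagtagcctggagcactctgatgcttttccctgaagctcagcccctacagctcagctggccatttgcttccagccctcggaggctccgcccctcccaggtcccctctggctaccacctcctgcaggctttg
The Atm promoter holds a CCAAT box that starts at position -165 from the start site, that of Brca1 holds one at -86, that of Fancb one at -201 and that of Xrcc6 one at 28, beside an E2F motif at -46. E2F factors switch on genes for S phase, and the CCAAT box is bound by the factor NF-Y, which is common to many promoters. Over the 34 members with an entry in the table, 8 (23.5%) held an E2F motif (Bard1, Brca2, Chek2, Clspn, Mdc1, Msh6, Topbp1 and Xrcc6), against 2.60% of the 27025 genes in it. A CCAAT box was present in 19 (55.9%) against 41.1%, and the cell cycle element CHR (TTTGAA or TTCGAA) in 3 (8.82%) against 21.7%. The interferon response element ISRE (2 copies of GAAA with 2 bases of any kind between them) was present in 4 (11.8%), those of Brca2, Brip1, Chek1 and Xrcc1, against 3.99%. It was found in 2 of the 10 members that rose with CMA in WT, 0 of the 13 that fell and 2 of the 11 that did not pass the test. The E2F motif was found in 1 of the 10 that rose, 3 of the 13 that fell and 4 of the 11 others. These matches are a description of the letters in a 300-base window.

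Levels between genes can be compared only per length, here as CPM per kb of exon in WT cells with DMSO. H2afx (69.1 CPM per kb), the mismatch recognition gene Msh6 (49.4) and the strand break sensor Parp1 (48.4) had the highest levels of the 41. Rnf8 (0.394), the end joining ligase Lig4 (2.51) and Fancm (2.99), a DNA translocase of the Fanconi pathway, had the lowest. Exons of Rnf8 overlap those of another gene, Gm28043, on the same strand over 1542 bases, and those of Rad54b overlap Fsbp over 2068 bases. Exons of 19 of the 41 genes overlap another gene's exons, on the same strand in 4 and on the opposite strand in 17. The library kit keeps the strand, but whether the counting used it is not stated in the sources used here. Reads tallied as ambiguous were left out, so counts of these genes may lack reads from the shared exons.

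CMA changed the expression of 26 of the 41 genes in WT T cells, in both directions. Atm rose 4.21-fold, and Brca1, the central scaffold of homologous recombination, rose 1.63-fold. The DNA end-binding subunit Xrcc6 (Ku70) fell to 0.487 of its DMSO level, and Fancb, Ung, Xrcc5 (Ku80), Blm, H2afx, Lig3 and Parp1 fell to between 0.556 and 0.735 of theirs. In total 11 genes rose and 15 fell past an adjusted p of 0.05 (edgeR quasi-likelihood test, Benjamini-Hochberg adjustment over all genes tested). Among all genes tested 33.0% rose and 37.4% fell, against 26.8% and 36.6% of the 41, so that neither share exceeded the background. The median log2 fold change was -0.087 over the 41 genes and -0.040 over all genes tested. That of the 41 genes was -0.023 without WT DMSO replicate 3 and -0.13 without WT DMSO replicate 2. Only Atm rose and only Xrcc6 fell by at least 2-fold. How many of all genes tested passed this cut was not counted.

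**Figure D1:**
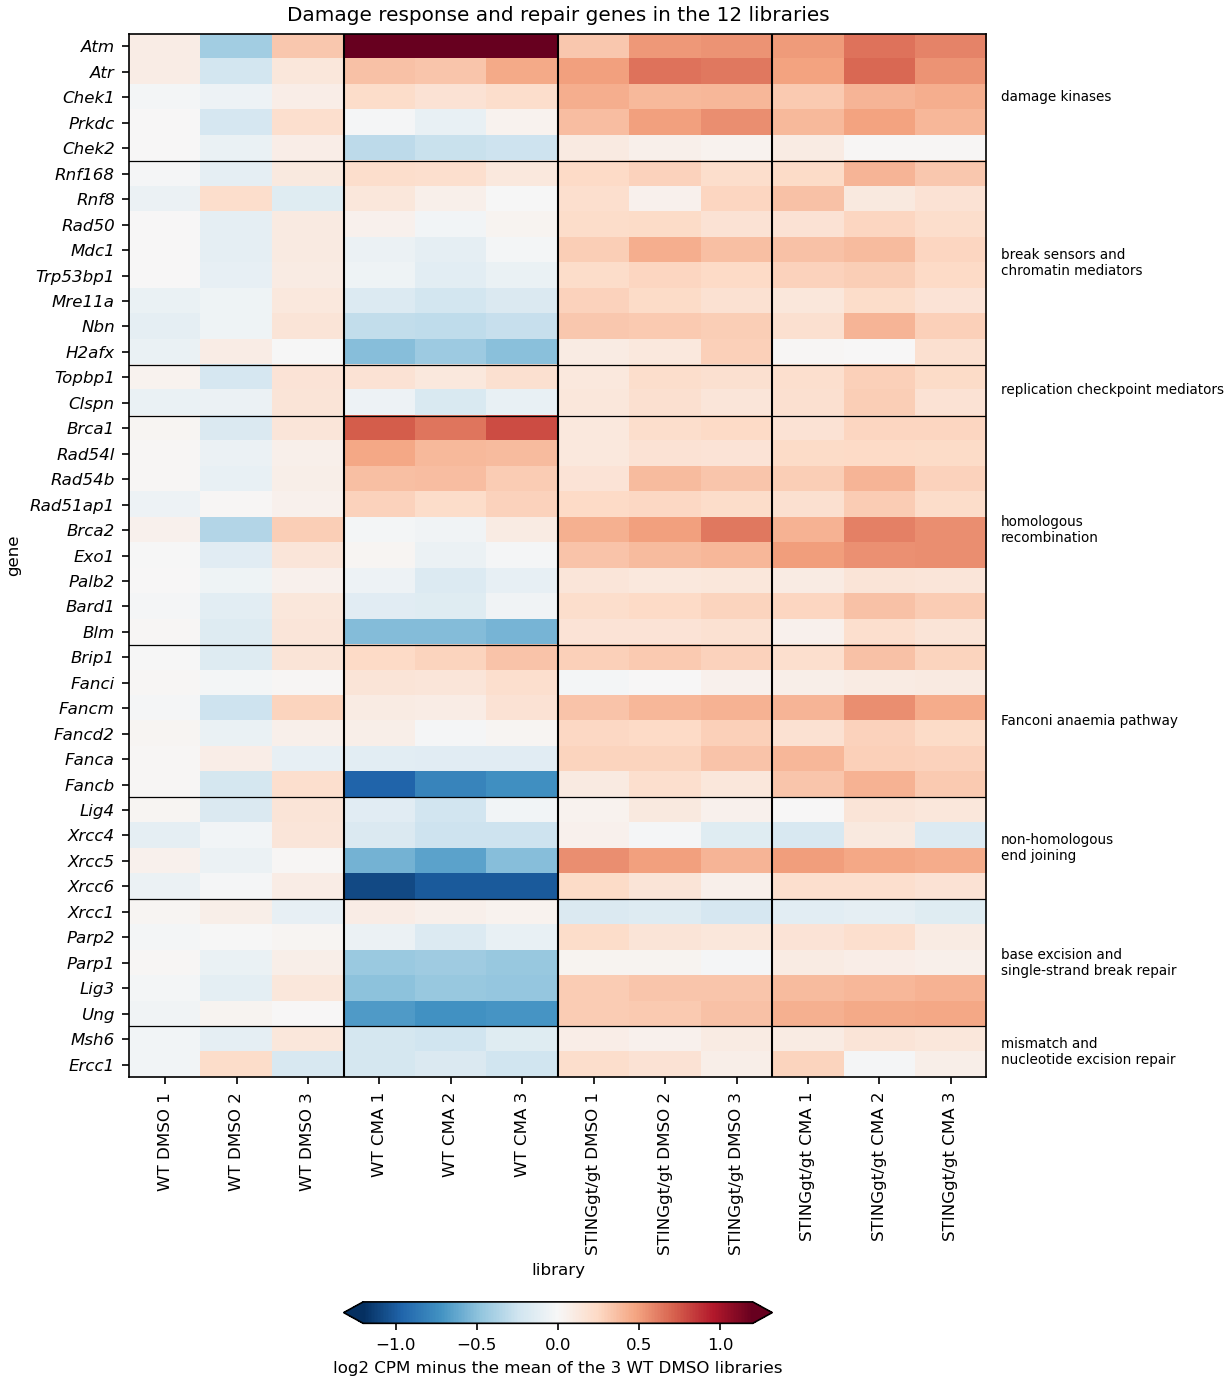
Each row is a gene, grouped by role, and each column is 1 library. The colour gives log2 CPM minus the mean of the 3 WT DMSO libraries, cut at 1.2 in either direction. WT CMA libraries show Atm and Brca1 in red and Xrcc6 and Fancb in blue, and most rows are red in all 6 STINGgt/gt libraries.

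The damage kinases gave the largest increase. Atm (chromosome 9, 53439149 to 53536740, minus strand) was at 102, 71.9 and 120.2 CPM in the WT DMSO libraries and at 415, 387 and 440.5 CPM with CMA, so that the lowest CMA value was more than 3 times the highest DMSO value. Its log2 fold change was 2.08 ± 0.13 (SE; edgeR adjusted p = 2.67e-10), higher than 96.8% of those of all genes tested. In STINGgt/gt cells Atm was at 119.9, 137 and 139 CPM with DMSO and 136, 151 and 144 CPM with CMA, which overlap.

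Atr, the kinase of stalled forks, and Chek1, the checkpoint kinase it activates, also rose in WT. Atr went from 96.3 ± 12.6 CPM (SD, n = 3) to 125 ± 5.61 CPM and Chek1 from 55.0 ± 2.79 to 63.3 ± 0.996 CPM, changes of 0.37 ± 0.080 and 0.20 ± 0.047 on the log2 scale. Chek2, the checkpoint kinase downstream of Atm, moved the other way. It was at 25.7, 24.2 and 27.1 CPM with DMSO and 20.6, 21.3 and 21.6 CPM with CMA, and fell by 0.28 ± 0.055 (edgeR adjusted p = 0.000256). Prkdc, the kinase of end joining, had a log2 fold change of -0.03 and did not pass the test.

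Of the 8 break sensors and chromatin mediators, 3 fell and 1 rose, where 37.4% and 33.0% of all genes tested did. H2afx (chromosome 9, 44334715 to 44336071, plus strand) was at 90.5, 101 and 95.1 CPM with DMSO and 67.0, 70.4 and 67.6 CPM with CMA. The groups did not overlap, and the log2 fold change was -0.49 ± 0.063 (edgeR adjusted p = 3.46e-06). Nbn fell by 0.30 and Mre11a, the nuclease of the same complex, by 0.19 on the log2 scale (-0.11 without WT DMSO replicate 3), while their partner Rad50 was at 119 ± 8.74 and 121 ± 3.71 CPM and did not pass the test. The ubiquitin ligase Rnf168 was at 33.4, 31.3 and 36.4 CPM with DMSO and 38.8, 38.6 and 36.6 CPM with CMA. It rose by 0.17 ± 0.061 (edgeR adjusted p = 0.0197), a call that was lost without WT DMSO replicate 2 (0.11), WT CMA replicate 1 or WT CMA replicate 2. Mdc1, Rnf8 and Trp53bp1 did not pass the test, with log2 fold changes of -0.07, 0.07 and -0.09. Over the alternatives they ran from -0.13 to -0.007, from -0.005 to 0.17 and from -0.14 to -0.02. Mdc1 and Trp53bp1 passed the threshold without WT DMSO replicate 2.

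Of the replication checkpoint mediators, Topbp1, which activates Atr, was close to the threshold. It was at 358, 304 and 390.3 CPM with DMSO and 394, 380.4 and 399 CPM with CMA, groups that overlap, with a log2 fold change of 0.16 ± 0.066 (edgeR adjusted p = 0.0441). It was 0.06 without WT DMSO replicate 2 and 0.25 without WT DMSO replicate 3, and the call was lost under 8 of the 21 alternatives. Clspn, which couples Atr to Chek1, was at 73.0, 73.3 and 85.8 CPM with DMSO and 73.8, 67.9 and 72.7 CPM with CMA and did not pass the test (log2 fold change -0.12, edgeR adjusted p = 0.0939). Its value ran from -0.16 to -0.02 over the alternatives. It passed the threshold with library-size scaling and without WT DMSO replicate 2.

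Homologous recombination held 4 genes that rose, 1 that fell and 4 that did not pass the test, against 33.0% of all genes tested that rose and 37.4% that fell. Brca1 (chromosome 11, 101488764 to 101551955, minus strand) was at 102, 88.4 and 111 CPM with DMSO and 165, 156 and 172 CPM with CMA, a log2 fold change of 0.71 ± 0.066 (edgeR adjusted p = 6.93e-08). The strand exchange motors Rad54l and Rad54b rose by 0.41 and 0.34 and Rad51ap1, another gene of this role, by 0.26. In each of these 4 genes every CMA library was above every DMSO library, as in 10 of the 41 genes and 33.5% of all genes tested. Blm, the helicase that dissolves recombination intermediates, fell. It was at 114, 101 and 125 CPM with DMSO and 78.4, 78.4 and 76.4 CPM with CMA (log2 fold change -0.54 ± 0.062, edgeR adjusted p = 7.34e-07). Bard1, the obligate partner of Brca1, did not rise with it and had a log2 fold change of -0.11 (edgeR adjusted p = 0.095). Its value ran from -0.18 to -0.03 over the alternatives. It passed the threshold under the replicate block, with library-size scaling and without WT DMSO replicate 2. Palb2 and Brca2, partners in recombination, and the resection nuclease Exo1 were at -0.11, -0.02 and -0.03. Over the alternatives they ran from -0.14 to -0.06, from -0.18 to 0.16 and from -0.10 to 0.06. Palb2 and Brca2 passed the threshold without WT DMSO replicate 2.

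Of 6 Fanconi anaemia genes 2 rose and 2 fell, where 33.0% and 37.4% of all genes tested did. Their pathway unhooks DNA crosslinks. Fancb (chromosome X, 164980592 to 164997272, plus strand), a subunit of its core ubiquitin ligase, was at 11.4, 9.79 and 12.97 CPM with DMSO and 5.83, 6.54 and 6.78 CPM with CMA. It fell by 0.85 ± 0.097 on the log2 scale (edgeR adjusted p = 8.07e-07), and Fanca, of the same ligase, fell by 0.13 (edgeR adjusted p = 0.0364). The helicase Brip1, a partner of Brca1, was at 56.1, 50.8 and 62.9 CPM with DMSO and 66.7, 67.8 and 71.5 CPM with CMA and rose by 0.28 ± 0.064 (edgeR adjusted p = 0.00105). Fanci rose by 0.17, while Fancd2, with which it forms the ubiquitinated clamp of the pathway, and Fancm did not pass the test (0.02 and 0.10). Fancm was at -0.03 without WT DMSO replicate 2 and at 0.26, past the threshold, without WT DMSO replicate 3.

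Of the 4 end joining genes 3 fell and 0 rose in WT, where 37.4% of all genes tested fell and 33.0% rose. Xrcc6 (chromosome 15, 81987835 to 82040085, plus strand) was at 81.5, 84.6 and 90.8 CPM with DMSO and 40.3, 42.4 and 42.6 CPM with CMA, a log2 fold change of -1.04 ± 0.053 (edgeR adjusted p = 3.21e-11). Its partner in the Ku ring, Xrcc5, went from 41.3 ± 1.77 to 27.7 ± 1.25 CPM, a log2 fold change of -0.58 ± 0.054. Xrcc4, the scaffold of the ligase, fell by 0.23 (edgeR adjusted p = 0.0281), a call lost under 7 of the 21 alternatives tried, with -0.14 without WT DMSO replicate 3. Lig4 was at 13.2, 11.5 and 14.5 CPM with DMSO and 11.9, 11.1 and 12.7 CPM with CMA and did not pass the test (log2 fold change -0.14 ± 0.083). It was -0.23, past the threshold, without WT DMSO replicate 2 and -0.04 without WT DMSO replicate 3.

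Base excision and single-strand break repair held 4 genes that fell of 5, where 37.4% of all genes tested fell. Ung (chromosome 5, 114130386 to 114139323, plus strand), the uracil glycosylase that also acts in antibody class switching, was at 28.6, 30.2 and 29.6 CPM with DMSO and 18.4, 17.8 and 18.1 CPM with CMA. Its log2 fold change was -0.70 ± 0.047 (edgeR adjusted p = 9.57e-10). The nick ligase Lig3 fell by 0.48 and Parp1 by 0.44. Parp2 fell by 0.11 with an adjusted p of 0.0427 (edgeR), a call lost under 15 of the 21 alternatives tried, as was that of Fanca. Xrcc1, the scaffold that holds Lig3, was at 62.4, 64.3 and 57.2 CPM with DMSO and 64.9, 64.0 and 62.9 CPM with CMA, and was the member of this group that did not pass the test (log2 fold change 0.06 ± 0.046).

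The last role holds 2 genes. Msh6 was at 209.8, 198 and 236 CPM with DMSO and 185, 181 and 194 CPM with CMA and fell by 0.20 ± 0.054 (edgeR adjusted p = 0.00322), or by 0.12 without WT DMSO replicate 3. Ercc1, a subunit of the nuclease that cuts beside bulky lesions and crosslinks, was at 21.0, 25.02 and 18.8 CPM with DMSO and 18.6, 19.1 and 18.2 CPM with CMA, with a log2 fold change of -0.21 ± 0.092 (edgeR adjusted p = 0.0546). It passed the threshold under 6 of the 21 alternatives, both replicate blocks among them, and was -0.10 without WT DMSO replicate 2 and -0.30 without WT DMSO replicate 3.

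**Figure D2:**
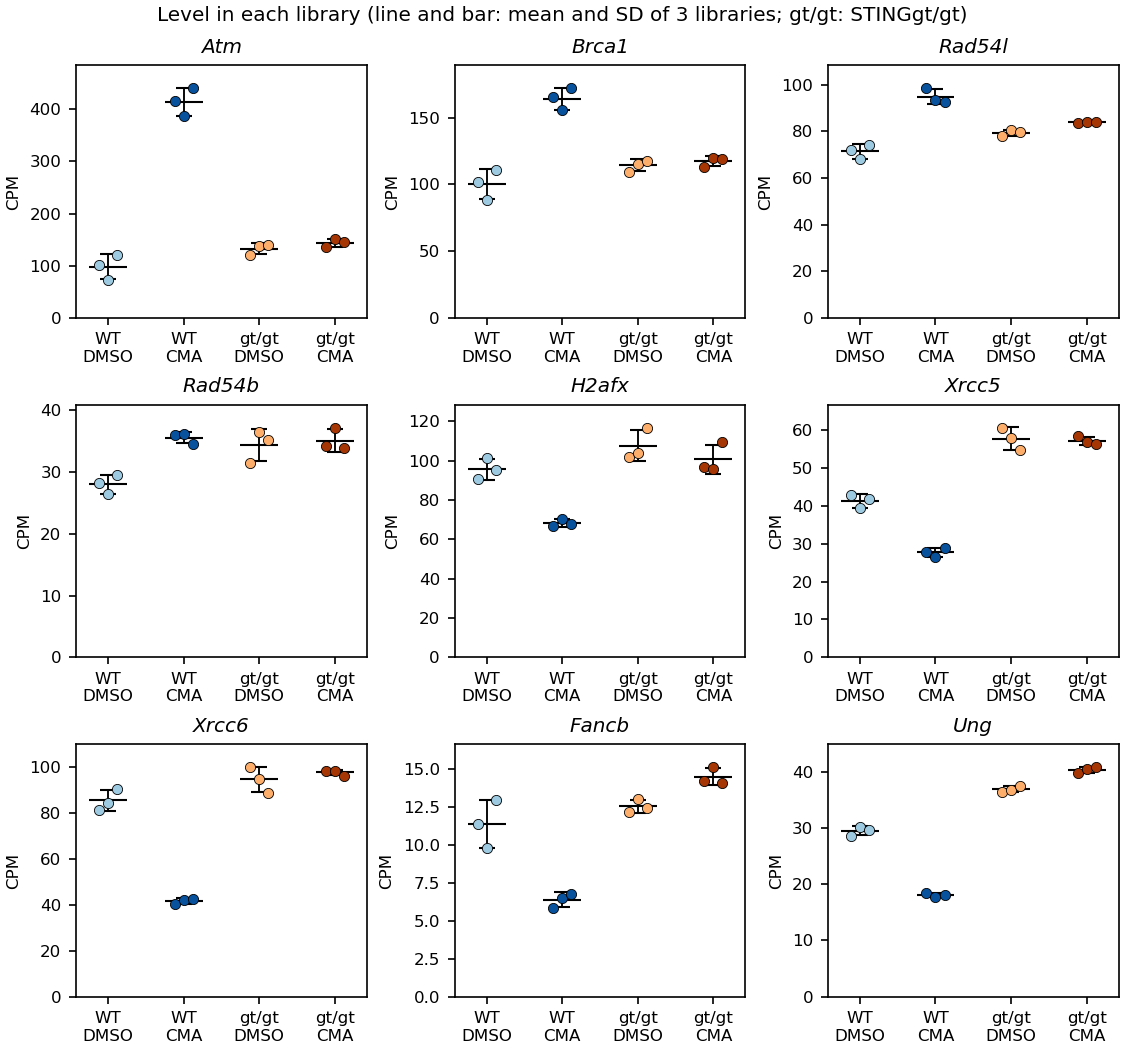
The vertical axes give CPM from 0 for 9 genes, with 1 point per library, and the lines and bars give the mean and SD of 3 libraries. The WT CMA points of Atm and Brca1 lie above all others, and those of H2afx, Xrcc5, Xrcc6, Fancb and Ung lie below all others.

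In STINGgt/gt cells, which test whether the response needs STING, none of the 41 genes passed the test for CMA against DMSO. The counts were 0 higher and 0 lower with edgeR, with DESeq2 and with limma-voom, and 3 genes (Exo1, Fancb and Ung, all with positive log2 fold changes) had an unadjusted p under 0.05 in the edgeR fit. Over all genes tested 0.398% rose and 0.920% fell. The log2 fold changes of the 41 genes ran from -0.10 (H2afx) to 0.21 (Fancb) with a median of 0.029, against 0.0013 over all genes, and no interval of 2 standard errors on each side reached below -0.22 or above 0.38. Exo1 was at 53.5, 54.8 and 55.4 CPM with DMSO and 59.5, 61.5 and 62.1 CPM with CMA, groups that did not overlap (log2 fold change 0.16, edgeR adjusted p = 0.211), and it passed the threshold without WT DMSO replicate 2, without WT DMSO replicate 3 and in the fit of only the STINGgt/gt groups. All CMA libraries also lay above all DMSO libraries for Fancb, Fanci, Lig3, Parp1, Rad54l, Ung and Xrcc1. This makes 8 of the 41 genes with groups apart in this direction and 0 in the other, against 11.8% and 11.3% of all genes tested.

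The difference of the CMA effect between the genotypes was tested as an interaction. It was positive for 8 of the 41 genes (Atm, Atr, Brca1, Brip1, Chek1, Rad51ap1, Rad54b and Rad54l) and negative for 11 (Blm, Chek2, Fancb, H2afx, Lig3, Msh6, Nbn, Parp1, Ung, Xrcc5 and Xrcc6), where 27.2% and 31.6% of all genes tested passed in these directions. The count of negative differences was 17 without WT DMSO replicate 2 and 16 with library-size scaling, fits in which the share of all genes was not counted. For Atm the difference was 1.95 ± 0.17 on the log2 scale (edgeR adjusted p = 7.06e-08). For Brca1 it was 0.67 ± 0.093 and for Rad54l 0.33 ± 0.061. The most negative differences were those of Xrcc6 (-1.08 ± 0.073, adjusted p = 2.69e-09), Fancb (-1.06 ± 0.13) and Ung (-0.83 ± 0.063), by the same edgeR test. The median difference was -0.10 over the 41 genes (-0.058 without WT DMSO replicate 3) and -0.032 over all genes. Of the 26 genes that changed in WT, 7 did not show a difference past the threshold (Fanca, Fanci, Mre11a, Parp2, Rnf168, Topbp1 and Xrcc4).

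**Figure D3:**
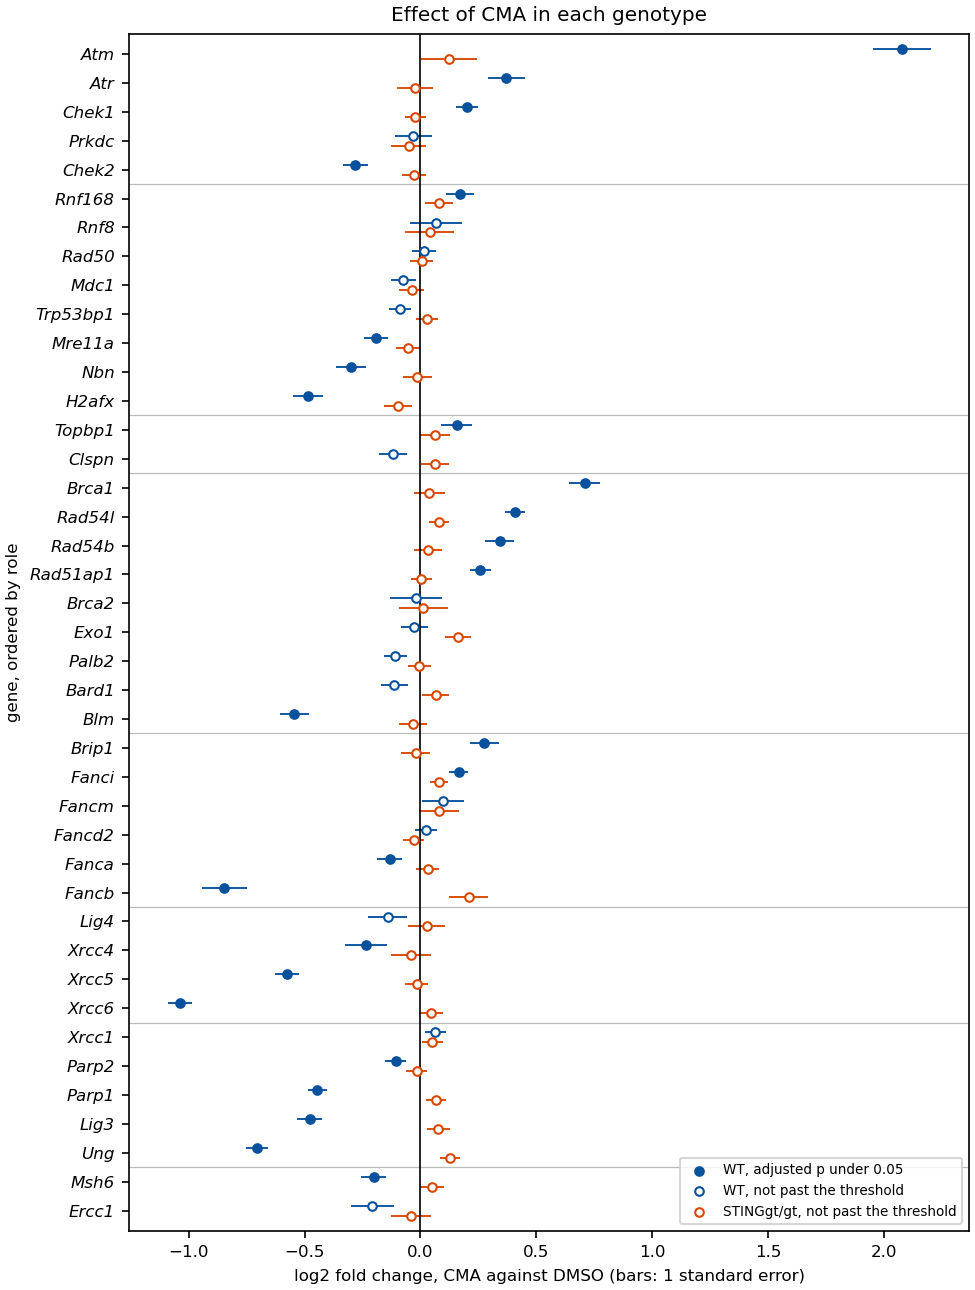
The horizontal axis gives the log2 fold change of CMA against DMSO with bars of 1 standard error, for WT (blue) and STINGgt/gt cells (orange), and filled points passed an adjusted p of 0.05. The 26 filled points are all of WT, and the orange points stay between -0.10 and 0.21.

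The genotypes differed already with DMSO, mostly in 1 direction. Of the 41 genes, 30 were lower in WT than in STINGgt/gt cells and 1, Xrcc1, was higher, where 19.8% of all genes tested were lower and 22.9% higher. The median log2 difference was -0.23 over the 41 genes and -0.0018 over all genes, and 39 of the 41 values were below 0. The differences were modest, and none reached 2-fold. Xrcc5 was at 42.9, 39.4 and 41.7 CPM in WT and 60.7, 57.9 and 54.7 CPM in STINGgt/gt cells, a log2 difference of -0.48 ± 0.051 (edgeR adjusted p = 1.18e-06). Chek1 was at 54.2, 52.7 and 58.1 against 74.3, 71.9 and 72.7 CPM (-0.41 ± 0.047) and Atr at 102, 81.9 and 105 against 135, 150.1 and 149 CPM (-0.58 ± 0.079). In these 3 genes no WT library reached the lowest STINGgt/gt library, as in 26 of the 41 genes and 22.6% of all genes tested. Ung (-0.32) and Mdc1 (-0.37) had the next smallest p-values, and Brca2 (-0.49), Prkdc (-0.46) and Atm (-0.43) were among those with the largest differences. The difference of Atm was -0.25 without WT DMSO replicate 2 and -0.61 without WT DMSO replicate 3. Xrcc1 was at 61.3 ± 3.66 CPM in WT and 54.1 ± 0.81 CPM in STINGgt/gt cells (0.18 ± 0.046, edgeR adjusted p = 0.0052). By role, the genes lower in WT were all 9 of homologous recombination, 7 of 8 break sensors and chromatin mediators, 4 of 5 kinases, 4 of 6 Fanconi genes, 3 of 5 of base excision, 2 of 4 of end joining, 1 of 2 checkpoint mediators and 0 of 2 of mismatch and nucleotide excision repair. Without 1 library at a time the count of 30 ran from 24 (without WT DMSO replicate 1) to 33 (without WT DMSO replicate 3), and it was 24 in a fit of only the groups compared.

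With CMA the median difference was wider. Again 30 genes were lower in WT and 4 were higher, where 36.5% of all genes tested were lower and 37.0% higher, and the median log2 difference was -0.32 over the 41 genes against -0.0047 over all genes. The genotype comparisons with DMSO and with CMA use different libraries, but whether their cells came from the same animals is not given. In both, 23 genes were lower in WT, which is 23 of 30 in each, where 12.5% of all genes tested were lower in both. Ung was at 18.4, 17.8 and 18.1 CPM in WT and 39.7, 40.4 and 40.8 CPM in STINGgt/gt cells (log2 difference -1.15 ± 0.046, edgeR adjusted p = 8.08e-13). Xrcc6 (-1.23), Fancb (-1.19) and Xrcc5 (-1.04) were also lower by at least 2-fold, and Lig3 (-0.87), Blm (-0.68) and Nbn (-0.59) by less. Chek2, Clspn, Ercc1, Fancb, Lig4, Msh6 and Parp1 passed the threshold with CMA and had not with DMSO. Of these, Chek2, Fancb, Msh6 and Parp1 passed the interaction test. Clspn, Ercc1 and Lig4 did not (edgeR adjusted p = 0.0777, 0.272 and 0.224). Clspn with DMSO (edgeR adjusted p = 0.0508) passed under 9 of 20 alternatives, and the CMA call of Lig4 was lost under 3 of 20. Fanci, Rnf8 and Xrcc4 passed in neither genotype comparison.

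For 3 genes the order of the genotypes turned. Atm, Brca1 and Rad54l were lower in WT with DMSO (-0.43, -0.18 and -0.15) and higher in WT with CMA (1.53, 0.49 and 0.18), and each had passed the interaction test. Rad54l was at 72.0, 68.0 and 74.3 CPM in WT and 77.9, 80.4 and 79.7 CPM in STINGgt/gt cells with DMSO. With CMA it was at 98.5, 93.5 and 92.7 CPM in WT and 83.6, 84.1 and 83.9 CPM in STINGgt/gt cells, so that the groups did not overlap under either treatment. The DMSO call of Brca1 was lost in some alternatives, with -0.11 without WT DMSO replicate 2. Brip1, Rad51ap1, Rad54b and Topbp1 were lower in WT with DMSO and within 0.08 of the STINGgt/gt level on the log2 scale with CMA (0.01, 0.02, 0.02 and -0.08). Topbp1 did not pass the interaction test, and its DMSO call was lost under 11 of 20 alternatives, while the other 3 had passed the interaction test.

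**Figure D4:**
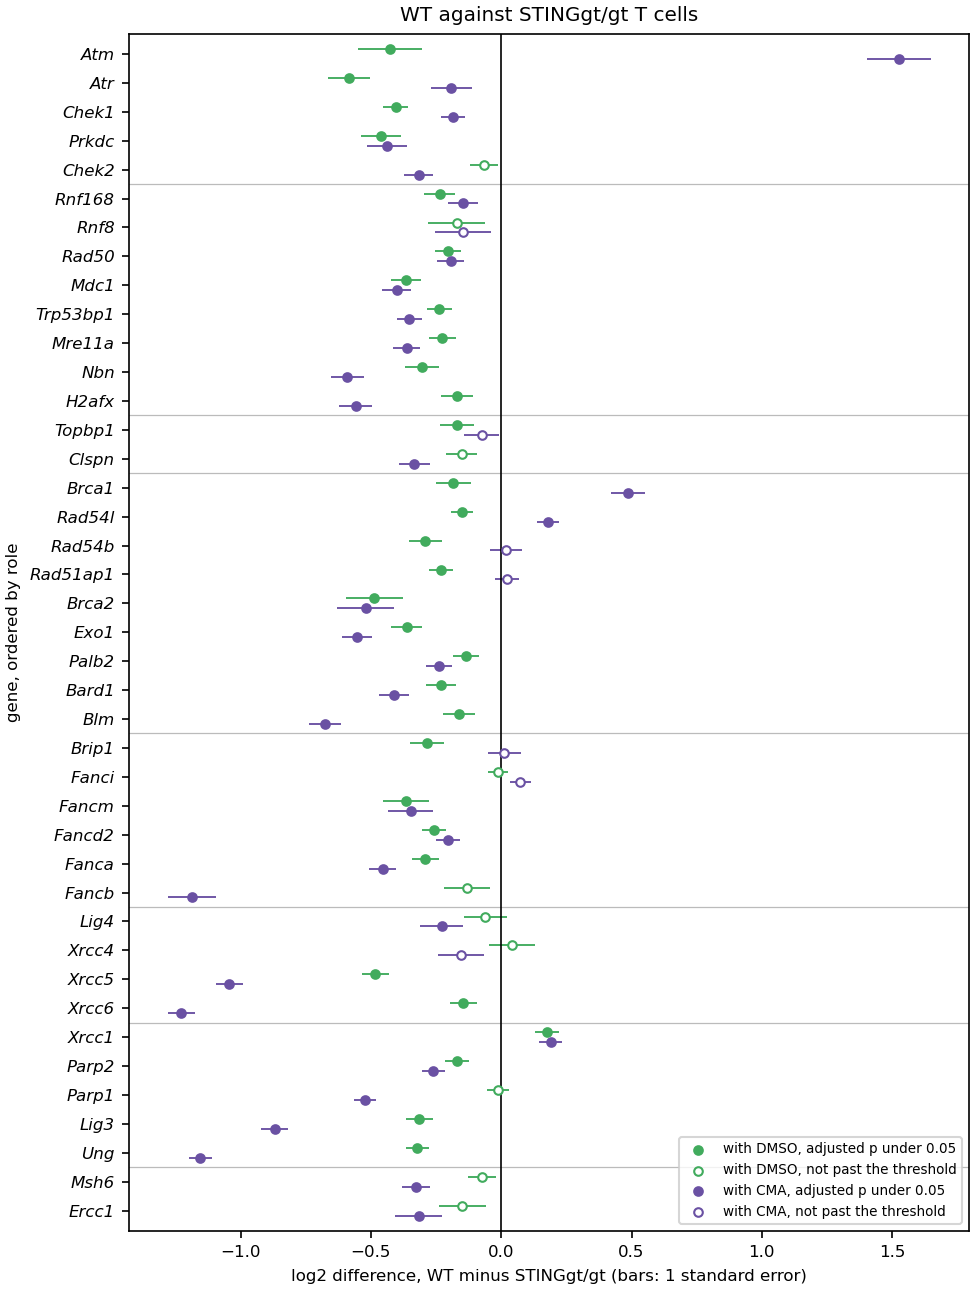
The horizontal axis gives the log2 difference of WT minus STINGgt/gt cells with bars of 1 standard error, with DMSO (green) and with CMA (purple), and filled points passed an adjusted p of 0.05. Of the 41 points, 39 green and 33 purple ones lie left of 0. Filled purple points right of 0 are those of Atm, Brca1, Rad54l and Xrcc1.

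Several other measures moved with the genotype, and their part in these differences was not tested. A list of 26 DNA replication and cell cycle genes, whose products copy DNA or drive cell division, was lower in WT with DMSO for 17 and higher for 0, with a median of -0.18, where 19.8% and 22.9% of all genes tested were. With CMA 19 were lower and 1 higher (median -0.33), against 36.5% and 37.0%. The summed level of this list was 6176 to 6943 CPM in WT and 7279 to 7402 CPM in STINGgt/gt cells with DMSO, and the summed level of the 41 genes was 2845 to 3312 and 3523 to 3618 CPM. B cell markers were higher in WT with DMSO for all 6 genes of the list, at a summed 253 to 266 CPM against 115 to 122 CPM, and none was at 0. CD8 and NK cell markers, 5 of 6 higher in WT and 0 lower, summed to 121 to 138 CPM against 58.2 to 60.4 CPM. Myeloid markers, with Adgre1 at a mean of 0.066 CPM or less in the DMSO groups, summed to 53.5 to 60.7 against 40.02 to 43.3 CPM. All 6 of them that were tested were higher in WT, with a median log2 difference of 1.80. The sort of naive T cells should leave out B, NK and myeloid cells, and cells described as CD4+ should hold no CD8 T cells. The 8 CD4 T cell markers summed to 3288 to 3365 CPM in WT and 3349 to 3392 CPM in STINGgt/gt cells. With CMA in WT the replication list gave 6 higher and 11 lower genes of 26, where 33.0% and 37.4% of all genes tested were (summed level 5996 to 6369 CPM), B cell markers summed to 349.9 to 378 CPM, CD8 and NK cell markers to 62.1 to 65.8 CPM, myeloid markers to 68.3 to 73.4 CPM and CD4 T cell markers to 3040.3 to 3067 CPM. The rise of the myeloid sum was not shared by its genes. Of the 6 tested, 1 rose and 2 fell with CMA in WT, with a median log2 fold change of -0.027. In such bulk samples fewer cells of a type and less RNA per cell cannot be told apart.

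Exon length also moved with the libraries. Genes with 8 kb or more of exon had a median log2 difference of -0.053 between WT and STINGgt/gt cells with DMSO and of 0.036 with CMA, and a median CMA effect in WT of 0.081. The part of exon length in the differences was not tested. Without WT DMSO replicate 2, 9 of the 41 genes rose and 21 fell with CMA in WT, and over the omission of each library these counts ran from 9 to 12 and from 12 to 21. The share of all genes tested was not counted in these fits, so these counts have no background to be read against.

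The rest of the repair pathways was read from lists of 110 further genes, all of which were tested. With CMA in WT 25 of the 110 (22.7%) rose and 52 (47.3%) fell, against 33.0% and 37.4% of all genes tested, with a median log2 fold change of -0.12. Other homologous recombination genes gave 6 higher and 7 lower of 19, with the helicase Wrn at 0.72 and the nuclease Dna2 at -1.05. Other Fanconi genes gave 3 higher and 8 lower of 12, with Fancc at 0.84 and the conjugating enzyme Ube2t at -0.57. Other base excision genes gave 3 higher and 10 lower of 20, with the abasic endonuclease Apex1 at -0.84, and other mismatch repair genes 1 higher and 5 lower of 6. Other nucleotide excision genes gave 4 higher and 8 lower of 15, translesion synthesis 1 higher and 5 lower of 11, and other checkpoint and damage chromatin genes 4 higher and 6 lower of 19.

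Other end joining genes gave 3 higher and 3 lower of 8. They include Dclre1c (Artemis), the nuclease that opens hairpins in antigen receptor rearrangement, at 0.54, and Dntt, the template-free polymerase of the same process. Dntt fell in WT from 26.9 ± 1.77 to 1.70 ± 0.179 CPM, a log2 fold change of -3.97, and was the 1 gene of the 110 that also changed in STINGgt/gt cells (-0.71, edgeR adjusted p = 0.000581), from 16.3 ± 1.2 to 9.94 ± 0.900 CPM. Between genotypes, 44 of the 110 genes were lower in WT with DMSO and 8 higher (median -0.11), against 19.8% and 22.9% of all genes tested, and 65 were lower and 18 higher with CMA (median -0.23), against 36.5% and 37.0%. Of 15 genes of p53 and its targets, 6 rose and 6 fell with CMA in WT, where 33.0% and 37.4% of all genes tested did, with the p53 ligase Mdm2 at 0.43, Phlda3 at 1.22, the kinase Plk2 at -0.57 and the nuclease Aen at -0.29.

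**Figure D5:**
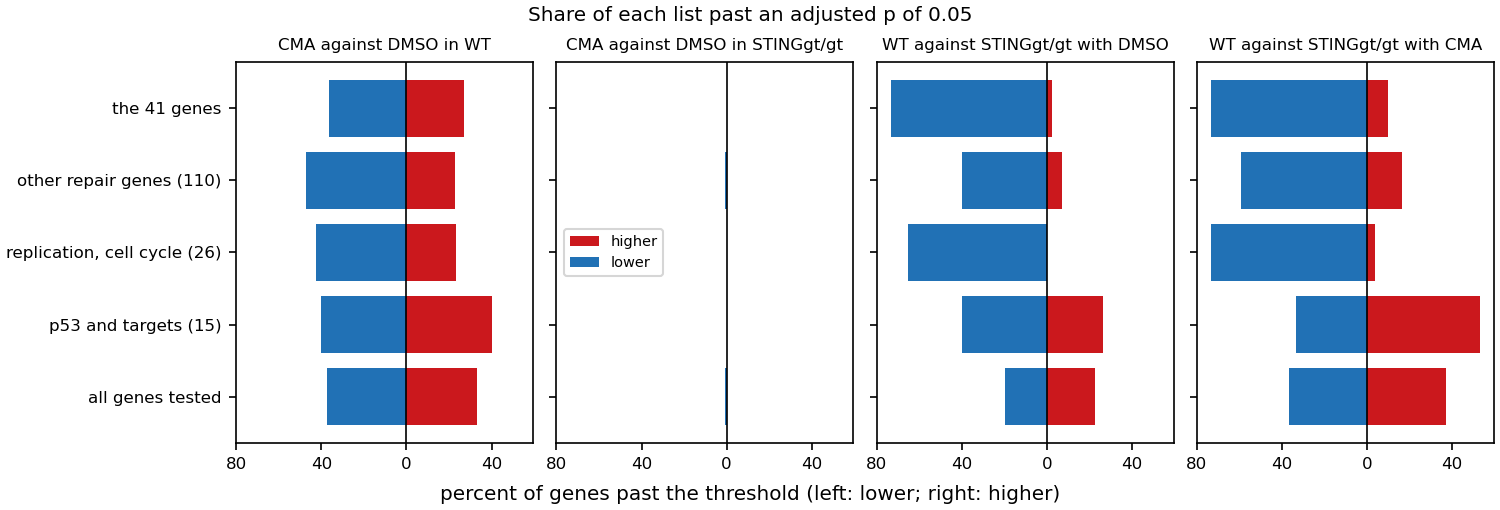
The horizontal axes give the percent of the genes of each list past an adjusted p of 0.05, lower to the left and higher to the right, in 4 comparisons. The shares of the 41 genes are near those of all genes tested for CMA in WT and lean to lower in WT in both comparisons of the genotypes.

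The samples were labelled as replicates and described by the study as biological ones, but which animals they came from is not given, so the p-values measure the spread between these samples. With 3 against 3 libraries an exact permutation test of a single gene cannot go below 0.1, and the tests above therefore rest on the spread shared across genes.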

How the data were processed

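RNA from 12 samples of mouse splenic CD4+ T cells (0.125 mg/ml CMA or DMSO for 16 h) was sequenced from TruSeq Stranded mRNA libraries. The authors deposited whole-number read counts per gene for each library and a table of log2 values for 11921 genes. The submitters' processing notes name cutadapt 1.3, STAR 2.4.0f1, HTSeq 0.6.1, RSEM 1.2.16 and GRCm38. The 12 columns of log2 values were not used, only the gene symbols beside them, and the counts gave every value here. Of each library's tallied reads, 27.8 to 30.3% were not uniquely aligned, 4.86 to 7.16% lay outside annotated genes and 0.594 to 0.635% were ambiguous, and these rows were left out. Members had at least 120 reads in each library. The counting error of a member in a group (Poisson CV at its mean count) ran from 0.777 to 8.18% with a median of 2.10%, against a median replicate CV of 3.85%, and exceeded the replicate CV in 43 of 164 cases.

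Counts of 13811 genes that passed filterByExpr were scaled by TMM and fitted in 1 model of 4 groups with edgeR 4.0.16 (quasi-likelihood test, R 4.3.3), with Benjamini-Hochberg adjustment over all genes and a threshold of 0.05. CPM values use the TMM library sizes. Each standard error (SE) was derived from the test, as the size of the log2 fold change divided by the square root of its F statistic. Pairs of libraries of 1 group differed beyond sampling noise (chi-square per degree of freedom 2.57 to 28.6), so that none was taken for a library deposited again. This does not show that they came from separate animals. The 41 members and all lists were chosen with earlier results of these data known. All members are named, those with the highest and lowest log2 fold change per role in WT with all values. In the other comparisons the members with the 5 smallest p-values per direction were named, and at most 2 higher and 2 lower genes per further list. CHR, E2F, CCAAT and ISRE letters were searched in the RefSeq promoters, and exon lengths and overlaps came from GENCODE M21 (GRCm38). The alternatives were DESeq2 1.42.0, limma-voom (limma 3.58.1), other scalings, filters and thresholds, fits of only the groups compared, replicate blocks, and leaving out each library. Figures were drawn with matplotlib 3.10.9.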

Additional observations from a re-analysis of the deposited data

Results flagged for a closer look

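For 19 of the 41 genes the CMA effect differed between WT and STINGgt/gt cells by a test of the difference itself (the interaction in the edgeR fit, Benjamini-Hochberg adjustment over all genes tested). Among all 13811 genes tested, 8123 passed the same test, 27.2% with a positive and 31.6% with a negative difference. The shares of the 41 genes, 19.5% and 26.8%, did not exceed these. The log2 differences, WT minus STINGgt/gt, were positive for Atm (1.95), Brca1 (0.67), Atr (0.39), Rad54l (0.33), Rad54b (0.31), Brip1 (0.30), Rad51ap1 (0.25) and Chek1 (0.22). They were negative for Xrcc6 (-1.08), Fancb (-1.06), Ung (-0.83), Xrcc5 (-0.56), Lig3 (-0.56), Blm (-0.51), Parp1 (-0.51), H2afx (-0.39), Nbn (-0.29), Chek2 (-0.25) and Msh6 (-0.25). The call of Nbn was lost without 1 STINGgt/gt CMA library, and the other 18 held under every alternative that was not a stricter threshold.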

How the results depend on the processing

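No member turned direction past the threshold under any alternative. Of the 26 genes called with CMA in WT, 21 kept their call under all alternatives other than stricter thresholds, as did 18 of 19 for the interaction, 25 of 31 for the genotypes with DMSO and 31 of 34 with CMA. The lost calls were those of Fanca, Parp2, Rnf168, Topbp1 and Xrcc4 (WT), Nbn (interaction), Blm, Brca1, H2afx, Palb2, Topbp1 and Xrcc6 (DMSO), and Atr, Lig4 and Rnf168 (CMA). Under 1 or more of these alternatives 10 of the 15 genes not called with CMA in WT gained a call (Bard1, Brca2, Clspn, Ercc1, Fancm, Lig4, Mdc1, Palb2, Trp53bp1 and Xrcc1), as did 1 of 41 in STINGgt/gt cells (Exo1), 8 of 22 for the interaction, 4 of 10 between genotypes with DMSO and 3 of 7 with CMA. Requiring at least 2-fold left 1 gene higher and 1 lower with CMA in WT, 1 and 2 for the interaction, 0 and 0 between genotypes with DMSO, and 1 and 4 with CMA. Fitting only the groups compared called 1 gene higher with CMA in STINGgt/gt cells, against 0. Leaving out each library in turn, 0 to 1 genes were higher there, 10 to 17 had a negative interaction and the median CMA effect in WT ran from -0.13 to -0.023. The highest count came without WT DMSO replicate 2 and the median nearest 0 without WT DMSO replicate 3. The cause was not tested.

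The shared replicate numbers were not read as pairs, since not every correlation was over 0.1: deviations of same-numbered samples correlated at 0.020, 0.22 and 0.25 in WT and at 0.11, 0.13 and 0.15 in STINGgt/gt cells. Under the replicate block 11 of the 41 genes rose and 17 fell with CMA in WT (15 without it), 8 and 14 for the interaction, 1 and 30 between genotypes with DMSO and 4 and 30 with CMA, and the median CMA effect in WT was -0.085. The negative differences it added were those of Bard1, Clspn and Exo1. In STINGgt/gt cells, where all 3 correlations were over 0.1, it left 0 genes higher and 0 lower. The sample names in the labels share their first digit in 5 of the 6 pairs of same-numbered DMSO and CMA samples. Every WT pair is among these, the exception is a STINGgt/gt pair, and what the digit marks is not given. A replicate block by this digit gave 11 higher and 14 lower genes with CMA in WT, 0 and 0 in STINGgt/gt cells and 8 and 11 for the interaction. All of this measures transcripts at 1 time point, so nothing here speaks to protein or to phosphorylation.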
